A study of Mus musculus with 8 samples.

Results

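Enzymes of 3 families that attach a polar group to drugs, hormones and reactive metabolites were followed at the RNA level in mouse kidney: the cytosolic, mitochondrial and peroxisomal glutathione transferases (Gst), the UDP-glucuronosyltransferases and their relatives (Ugt), and the cytosolic sulfotransferases (Sult). Genes were taken by symbol, which gave 52 of the 20245 genes measured, and were kept where FPKM reached 1 in at least 2 libraries, which left 38. FPKM (fragments per kilobase of transcript, scaled to the mapped total) is a level corrected for transcript length, so levels of different genes can be set side by side. The kept genes were 19 of 21 glutathione, 13 of 21 glucuronide and 6 of 10 sulfate transferases. The members were thus chosen by their symbol and by these FPKM values, with earlier results of these data known, and Gsta1 was singled out among them in the same knowledge. That a member is expressed in kidney is therefore not a finding.

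The kidneys came from C57BL/6 mice in 4 groups of 2 libraries each. PKD_FP and PKD_DMSO were kidneys of mice with autosomal dominant polycystic kidney disease (ADPKD, here PKD), in which fluid-filled cysts replace tubules, given flavopiridol (FP) or its vehicle DMSO, and WT_FP and WT_DMSO were wild-type kidneys given the same. Flavopiridol inhibits cyclin-dependent kinases, among them the kinase of P-TEFb, which frees stalled RNA polymerase II for elongation. The study asked about P-TEFb activation by cyclic AMP and protein kinase A in ADPKD. Neither the mutated gene of the PKD mice, any Cre driver, the dose, the schedule nor the animals' age is stated in the sources at hand. The labels also do not call the replicates separate animals, so a p-value here covers the spread between libraries alone, which may be technical.

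Glutathione transferases join glutathione to electrophiles, glucuronosyltransferases of the endoplasmic reticulum move a sugar from a UDP-sugar onto phenols, bilirubin and steroids, and sulfotransferases move sulfate from the donor PAPS onto phenols, catecholamines and steroids. The conjugates leave the cell through ABC transporters, and in kidney the proximal tubule is a main site of this chemistry. Many of these genes are induced through NRF2, which reads antioxidant response elements, or through the aryl hydrocarbon receptor.

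Several members are close copies, which bears on what a value for 1 gene can mean. In the GENCODE M21 annotation of GRCm38 (the assembly of mm10, the build named by the submitters), the coding sequences of Gsta1 and Gsta2 were 98.0% identical, with 13 differences over 666 aligned bases, and those of Ugt3a1 and Ugt3a2 were 93.2% identical, with 106 differences over 1569 aligned bases. These pairs are shown because the results below turn on them. For each pair the stretch shown is the 60 bases that held the most differences, so it is not typical of the pair. Coding bases 449 to 508 of Gsta1 and Gsta2, both on chromosome 9, held 5 of their differences, and coding bases 239 to 298 of Ugt3a1 and Ugt3a2, both on chromosome 15, held 16. Each sequence reads 5′ to 3′ on the gene's own strand, and capitals mark bases that differ within the pair.
Gsta1: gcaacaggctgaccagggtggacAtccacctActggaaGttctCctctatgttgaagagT
Gsta2: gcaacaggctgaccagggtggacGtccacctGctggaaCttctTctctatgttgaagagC
Ugt3a1: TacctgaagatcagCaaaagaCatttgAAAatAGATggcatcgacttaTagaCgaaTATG
Ugt3a2: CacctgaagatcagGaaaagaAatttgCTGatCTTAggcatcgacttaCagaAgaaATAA
Reads that fall between such differences cannot be assigned to 1 gene of the pair. Of the 38 members, 11 were over 90% identical to another in coding sequence, among them also Gstp1 with Gstp2 (98.1%), Ugt1a6a with Ugt1a6b (98.4%) and Ugt2b38 with Ugt2b5 (97.0%), and how the authors assigned shared reads is unknown here. The Ugt1a genes start at separate first exons on chromosome 1 and share the rest of their coding sequence, so their single-gene values are uncertain too.

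Before the members, the libraries. Summed FPKM ranged from 485924 to 572661. The WT libraries were not most alike within their groups: WT_FP replicate 1 correlated most with WT_DMSO replicate 2 (Pearson r = 0.986 over 14391 genes on the log2(FPKM + 1) scale, a description) and WT_FP replicate 2 with WT_DMSO replicate 1 (r = 0.979), both above the r of 0.964 within WT_FP and 0.969 within WT_DMSO. Whether labels were exchanged among WT libraries cannot be told from these files, and this limit holds for every comparison with a WT group. Gsta1 separated by label, at 12.86 and 15.48 FPKM in WT_FP against 4.25 and 2.73 FPKM in WT_DMSO libraries. As Gsta1 was singled out with results of these data known, nothing about the labels is concluded from it. WT_FP replicate 2 also held 465.51 FPKM summed over 7 adipocyte markers, against 2.53 to 67.22 elsewhere. Of 15 proximal tubule markers none was at 0 in any library. They summed to 4729 and 5559 FPKM in PKD_FP and 4874 and 2708 in PKD_DMSO kidneys, against 23041 and 23840 in WT_FP and 33027 and 33811 in WT_DMSO kidneys. Much of these sums was the single gene Kap. It had 3039 and 4300 FPKM in PKD_FP and 2696 and 1221 FPKM in PKD_DMSO libraries. In WT_FP it had 15475 and 19670 FPKM, and in WT_DMSO 26700 and 25856 FPKM. The 10 macrophage markers summed to 674 to 1317 FPKM in PKD libraries and 76.5 to 139 in WT libraries. In whole kidney, fewer cells of a type and less RNA per cell cannot be told apart. The 8 liver markers, read because liver is rich in these enzymes, summed to 160.37 to 396.52 FPKM, nearly all of it from Serpina1a (105.06 to 352.71 FPKM) and Ttr (20.54 to 76.41 FPKM). Of the other 6, Alb was at or below 1.19 FPKM, Apob at or below 1.68, Apoa1 at or below 2.34, and Cyp3a11, F2 and Tat at or below 0.06. The 6 adrenal cortex markers summed to 1.37 to 4.67 FPKM. Xist was at or below 0.13 FPKM and the Y-linked Ddx3y at 13.68 FPKM or more in every library, a check made because several of these enzymes differ by sex in mice.

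Levels spanned a wide range among members. Averaged over 8 libraries, 13 members reached 100 FPKM and 13 stayed under 10 FPKM. Glutathione transferases made up most of the transcript: the 19 genes summed to 1879 ± 23.9 FPKM in PKD_FP, 2223 ± 461 in PKD_DMSO, 2642 ± 91.8 in WT_FP and 2626 ± 14.9 in WT_DMSO kidneys (SD, n = 2 each). The 13 glucuronide genes summed to 193 ± 97.1 FPKM in PKD_FP, 322 ± 66.7 in PKD_DMSO, 613 ± 223 in WT_FP and 667 ± 226 in WT_DMSO kidneys. The 6 sulfate genes summed to 158 ± 36.6 FPKM in PKD_FP, 358 ± 61.1 in PKD_DMSO, 483 ± 90.5 in WT_FP and 531 ± 23.0 in WT_DMSO kidneys. In each of the 3 families every PKD library lay below every WT library, by narrow margins for some pairs of libraries. As a share of each library's summed FPKM, that order held only for the glucuronide genes. Glutathione genes made up 0.502% in PKD_DMSO replicate 1, against 0.460% to 0.499% in WT libraries. Sulfate genes made up 0.0827% in PKD_DMSO replicate 2, against 0.0773% in WT_FP replicate 2. The order of these sums is a description. A single gene, Sult1d1, held 69.4% of the mean sulfate sum in PKD_FP, 87.1% in PKD_DMSO, 84.7% in WT_FP and 83.1% in WT_DMSO kidneys. Because the sums follow their few most abundant genes, they say little of the others.

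**Figure D1:**
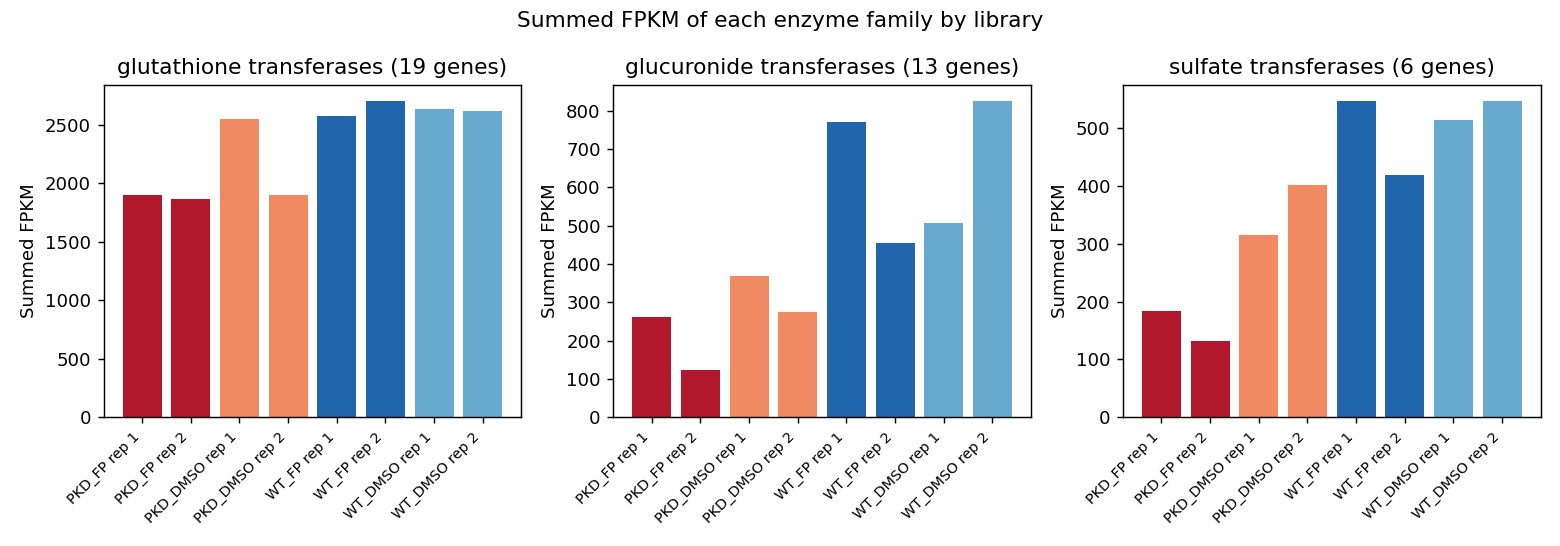
Summed FPKM (vertical axis, from 0) of the kept glutathione, glucuronide and sulfate transferase genes in each of 8 libraries; each bar is 1 library, coloured by group. The glucuronide and sulfate bars of PKD_FP are the lowest of their panels, at 124 and 261 FPKM and at 132 and 184 FPKM.

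The members at the edge of the threshold were few. In all, 32 members reached 1 FPKM in all 8 libraries. Of the other 6, Gsto2 reached it in 3 libraries, all WT, and Ugt2b5 in 3, all PKD, so their place in the set came through 1 genotype. Just outside stood Ugt1a9, which reached 1 FPKM in 1 library (1.49 in PKD_DMSO replicate 2), and Sult4a1, whose highest value was 0.87. The other 12 left out, untested, were Gstm3, Gstt4, Sult1c1, Sult1e1, Sult6b1, Ugt1a5, Ugt2a1, Ugt2a2, Ugt2a3, Ugt2b1, Ugt2b35 and Ugt2b36.

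**Figure D2:**
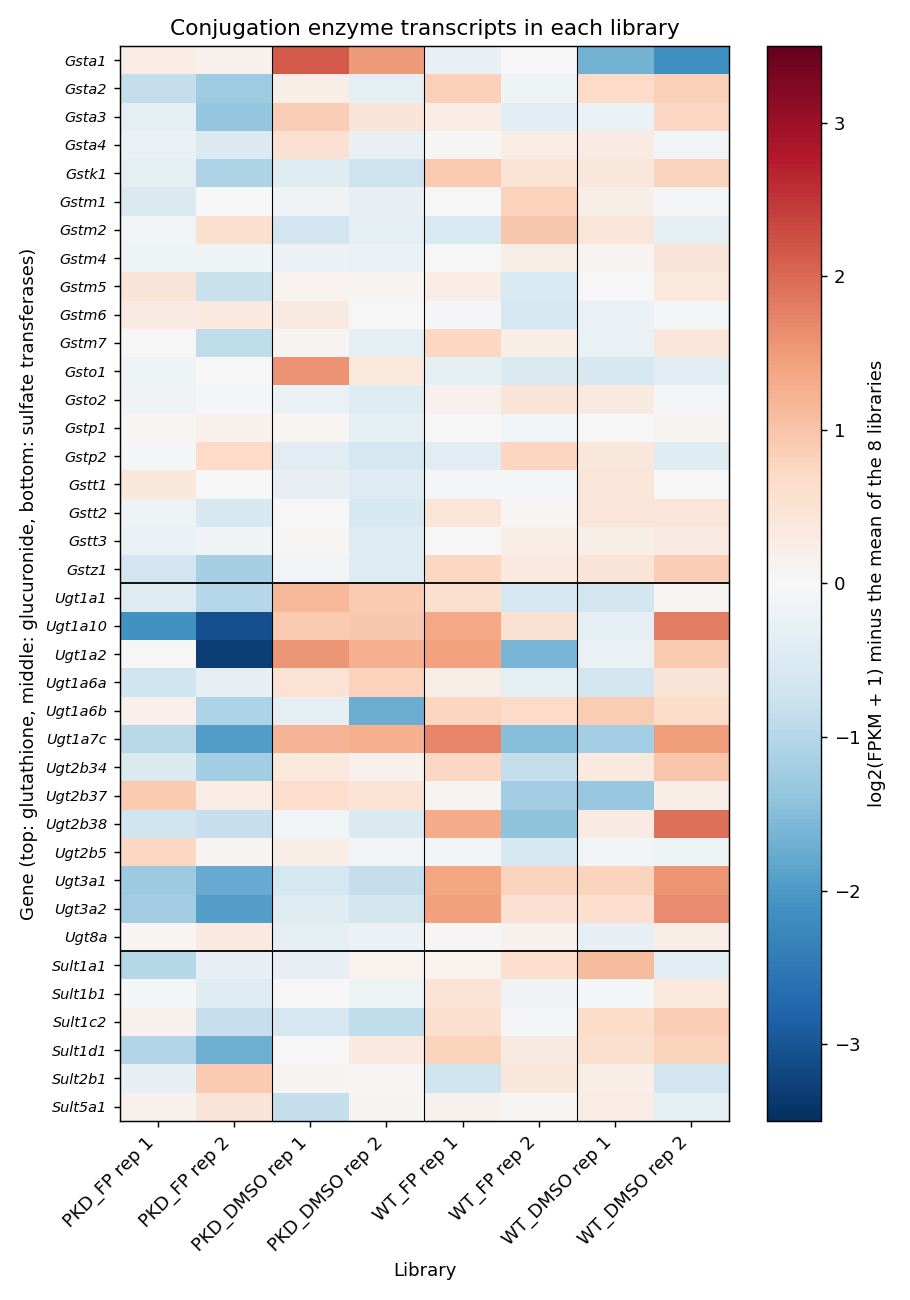
Log2(FPKM + 1) of each of the 38 members (rows) in each library (columns, replicates beside each other), as the difference from that gene's mean over the 8 libraries; red is higher and blue lower. Gsta1 is highest in PKD_DMSO, Ugt3a1 and Ugt3a2 are low in all 4 PKD libraries, and Ugt1a10 is lowest in PKD_FP.

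The comparison of PKD_DMSO with WT_DMSO kidneys asks how cystic disease itself went with these enzymes. Gsta1 and Gsto1 were higher in PKD_DMSO, and Gstk1, Gstz1, Sult1c2, Ugt3a1 and Ugt3a2 were lower. Changes were tested with limma on log2(FPKM + 1) with all 8 libraries, with Benjamini-Hochberg adjustment over 14391 genes and a threshold of 0.05; fold changes on this scale understate those of low genes. Of 38 members, 2 were called higher, where 14.8% of all tested genes were, and 5 were called lower, where 7.52% of all genes were. The median log2 fold change was −0.307 over the members and 0.121 over all genes. Without regard to the test, 8 members had both PKD_DMSO libraries above both WT_DMSO libraries (41.2% of all genes did) and 16 had both below (24.5% of all genes).

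Gsta1, an alpha-class transferase on chromosome 9 (chr9:78230669-78242683, RefSeq GRCm38.p6), gave the largest fold change among members. Its level was 72.40 and 45.42 FPKM in the PKD_DMSO libraries, against 4.25 and 2.73 FPKM in the WT_DMSO libraries. The groups lay far apart, and Gsta1 ranked 28 by fold change and 26 by p among 14391 genes. Its log2 fold change was 3.72 ± 0.26 (SE), with a 95% interval of 3.09 to 4.35 and a limma Benjamini-Hochberg adjusted p of 0.00151. Its near copy Gsta2 (chr9:78331018-78347192), far more abundant in WT kidney, had 356.84 and 243.33 FPKM in PKD_DMSO against 482.74 and 545.58 FPKM in WT_DMSO libraries. Gsta2 therefore lay lower in PKD_DMSO without overlap, at −0.80 (−1.64 to 0.05), which did not pass limma's test (Benjamini-Hochberg adjusted p = 0.150).

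Gsto1, an omega-class enzyme that reduces thiol adducts and dehydroascorbate (chr19:47854973-47864790), had 345.35 and 148.84 FPKM in PKD_DMSO, against 77.23 and 87.62 FPKM in WT_DMSO libraries. The groups did not overlap, but the PKD_DMSO libraries differed widely from each other. The log2 fold change was 1.45 ± 0.36 (SE; limma, Benjamini-Hochberg adjusted p = 0.0325). The neighbouring Gsto2 stayed near 1 FPKM, with 0.73 and 0.51 FPKM in PKD_DMSO against 1.53 and 0.93 FPKM in WT_DMSO libraries.

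Of the glutathione transferases, 2 were lower in PKD_DMSO. Gstk1, the kappa-class enzyme of mitochondria and peroxisomes (chr6:42245935-42250441), had 40.31 and 32.60 FPKM in PKD_DMSO against 71.95 and 94.66 FPKM in WT_DMSO libraries. Gstz1, the zeta-class enzyme also known as maleylacetoacetate isomerase of tyrosine breakdown (chr12:87147161-87164723), had 90.45 and 69.79 FPKM in PKD_DMSO against 131.49 and 175.26 FPKM in WT_DMSO libraries. Neither gene's groups overlapped. Their log2 fold changes were −1.16 ± 0.30 for Gstk1 (limma, Benjamini-Hochberg adjusted p = 0.0356) and −0.93 ± 0.26 for Gstz1 (adjusted p = 0.0458).

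The most abundant glutathione transferases were not called. Gstm1, a mu-class enzyme, had 541.85 and 485.10 FPKM in PKD_DMSO against 680.49 and 563.61 FPKM in WT_DMSO libraries. Gstp1, the pi-class enzyme, had 289.46 and 225.28 FPKM in PKD_DMSO against 281.26 and 298.88 FPKM in WT_DMSO libraries. Gstm1 was lower in PKD_DMSO without overlap, while the Gstp1 groups overlapped. The intervals of the log2 difference were −0.996 to 0.452 for Gstm1 and −0.58 to 0.22 for Gstp1, so no direction could be given for either.

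Among glucuronide transferases the UGT3A pair fell. Ugt3a1 (chr15:9279822-9315038) had 9.95 and 8.48 FPKM in PKD_DMSO against 27.77 and 47.89 FPKM in WT_DMSO libraries. Ugt3a2 (chr15:9335551-9370955) had 76.23 and 65.66 FPKM in PKD_DMSO against 155.91 and 325.84 FPKM in WT_DMSO libraries. The human enzymes of these names use UDP-sugars other than UDP-glucuronate. For both genes every PKD_DMSO library lay below every WT_DMSO library, at log2 fold changes of −1.88 ± 0.32 for Ugt3a1 (limma, Benjamini-Hochberg adjusted p = 0.0113) and −1.66 ± 0.44 for Ugt3a2 (adjusted p = 0.0406). Given their similar sequences, these are not independent calls.

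Ugt1a6b, a phenol glucuronosyltransferase with the highest level of its family on average over the 8 libraries (though below Ugt3a2 in WT_DMSO kidneys), had 107.19 and 39.39 FPKM in PKD_DMSO against 248.44 and 210.90 FPKM in WT_DMSO libraries. These groups did not overlap either, but the log2 fold change of −1.80 ± 0.53 missed the threshold (limma, Benjamini-Hochberg adjusted p = 0.0537). Ugt1a1, the bilirubin-conjugating enzyme, pointed the other way at a low level, with 4.49 and 3.66 FPKM in PKD_DMSO against 0.57 and 1.58 FPKM in WT_DMSO libraries (log2 fold change 1.33 ± 0.44; adjusted p = 0.0710). Over the 13 glucuronide members, 6 fold changes lay below 0 and 7 above, with none called higher.

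Of the sulfotransferases, Sult1c2 (chr17:53829637-53845958) fell. It had 16.82 and 13.48 FPKM in PKD_DMSO against 40.94 and 48.62 FPKM in WT_DMSO libraries. The groups lay clearly apart, with a log2 fold change of −1.51 ± 0.35 (limma, Benjamini-Hochberg adjusted p = 0.0263). Sult1d1, which in mouse sulfates catecholamines (chr5:87554650-87569006), had 272.00 and 352.43 FPKM in PKD_DMSO against 409.45 and 473.25 FPKM in WT_DMSO libraries, and its −0.51 ± 0.28 did not pass (adjusted p = 0.233). Sult1a1, a phenol sulfotransferase, had 19.76 and 26.95 FPKM in PKD_DMSO against 53.92 and 18.43 FPKM in WT_DMSO libraries, which overlapped.

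The call of Gsta1 held under all 17 alternative settings, at log2 fold changes of 3.39 to 4.05. Leaving out any of the 4 compared libraries ended the calls of Gstk1 (−1.36 to −0.97), Gstz1 (−1.13 to −0.72) and Sult1c2 (−1.66 to −1.36). Gsto1 was no longer called without PKD_DMSO replicate 1, where its log2 fold change was 0.85, nor without WT_DMSO replicate 1 (1.36) or 2 (1.54). Ugt3a2 was no longer called without PKD_DMSO replicate 1 (−1.76) or 2 (−1.55) or WT_DMSO replicate 2 (−1.13), and with the replicate number as a block neither it nor Gstz1 was called. Ugt3a1 lost its call in a single setting, without PKD_DMSO replicate 2 (−1.78). Alongside them, 9 of 15 proximal tubule markers were lower (median −2.06) and 10 of 10 macrophage markers higher (median 2.87) in PKD_DMSO, as were 4 of 8 fibroblast markers. Of the proximal tubule markers, only Aqp1 (0.72) and Cyp2e1 (0.34) had fold changes above 0, and neither was called. Of the 8 markers each of the thick ascending and distal tubule and of the collecting duct, 4 and 1 were lower, and of 6 endothelial markers 0 were called. Their part in the members' differences was not tested.

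**Figure D3:**
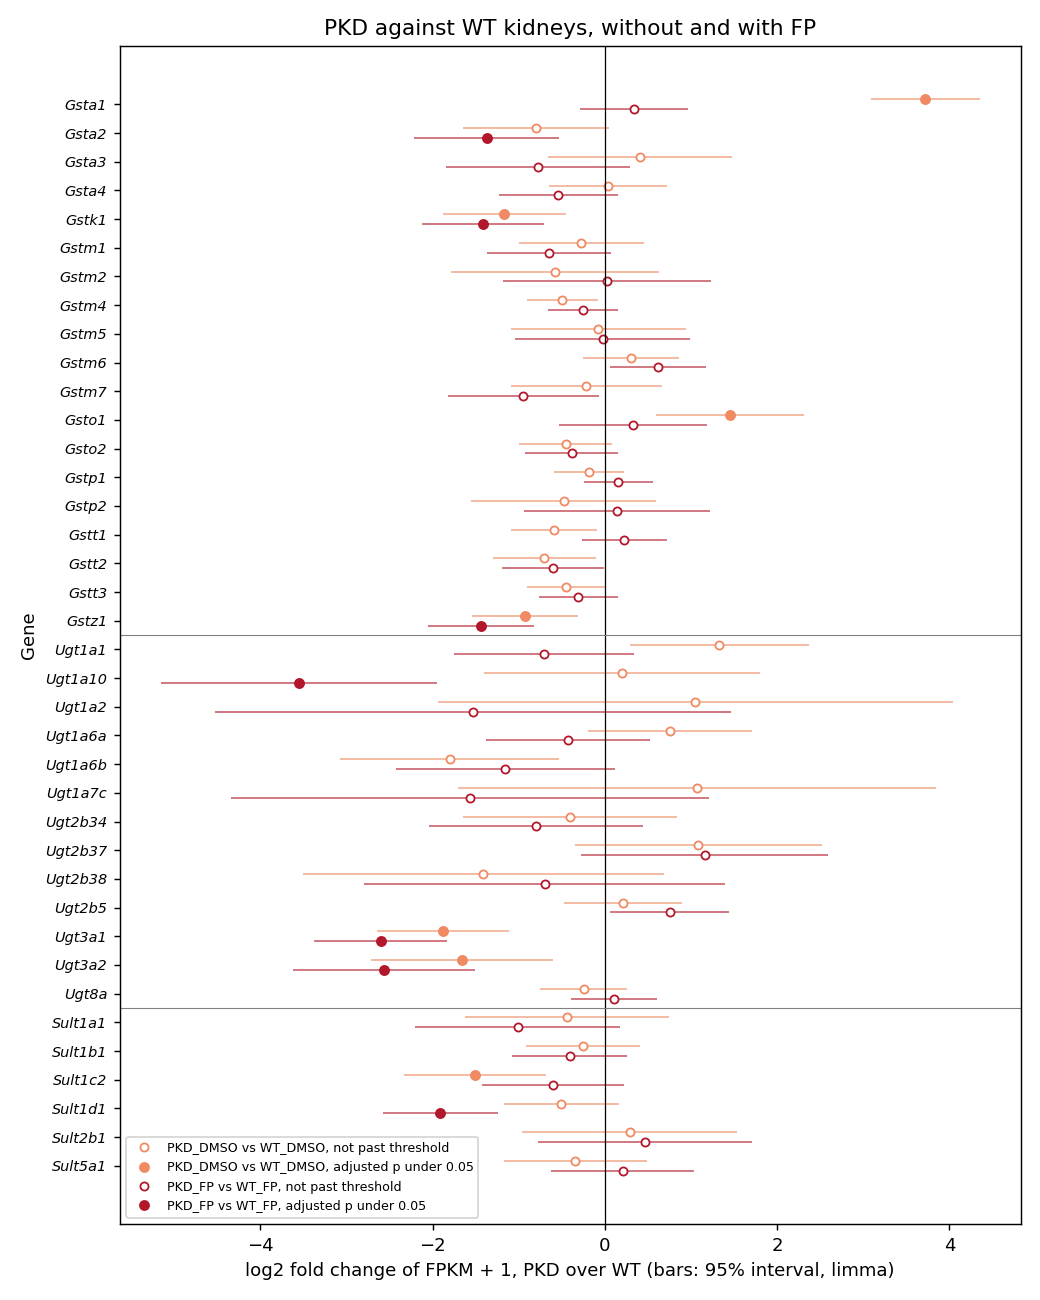
Log2 fold change of FPKM + 1 (horizontal axis) for each of the 38 members, PKD_DMSO over WT_DMSO in orange and PKD_FP over WT_FP in red, with 95% limma intervals as bars and filled points where the adjusted p was under 0.05. Gsta1 stands alone at 3.72 in PKD_DMSO over WT_DMSO and near 0 (0.34) in PKD_FP over WT_FP, and Ugt3a1 and Ugt3a2 lie below −1.6 in both.

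The comparison of PKD_FP with WT_FP kidneys repeats the genotype contrast under the drug, with group means from other libraries. Both contrasts came from the same fit of 8 libraries with a shared estimate of spread, so their tests were not independent. No member was called higher, where 8.71% of all genes were, and at an unadjusted p under 0.05 there were 2, where 18.9% of all genes were. These were Gstm6 and Ugt2b5, and the second had passed the level threshold through PKD libraries alone. The test called 7 members lower, where 5.23% of all genes were: Gsta2, Gstk1, Gstz1, Sult1d1, Ugt1a10, Ugt3a1 and Ugt3a2. The median log2 fold change was −0.57 over the members and 0.07 over all genes. Without regard to the test, 8 members lay higher without overlap (34.6% of all genes) and 15 lower (25.2% of all genes).

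Ugt1a10 (chr1:88055411-88220002), named like a human enzyme known from the gut, had 4.33 and 1.75 FPKM in PKD_FP against 58.19 and 33.00 FPKM in WT_FP libraries. The groups were far apart, with a log2 fold change of −3.55 ± 0.67 (limma, Benjamini-Hochberg adjusted p = 0.0217). Ugt3a1 had 5.92 and 3.91 FPKM in PKD_FP against 42.52 and 27.82 FPKM in WT_FP libraries, and Ugt3a2 had 43.60 and 26.53 FPKM against 282.73 and 150.83 FPKM. Neither overlapped, at −2.60 ± 0.32 for Ugt3a1 (limma, Benjamini-Hochberg adjusted p = 0.00864) and −2.57 ± 0.44 for Ugt3a2 (adjusted p = 0.0180). Ugt1a6b had 151.64 and 63.07 FPKM in PKD_FP against 224.23 and 213.69 FPKM in WT_FP libraries and was not called (−1.15, interval −2.42 to 0.12).

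Sult1d1 had 134.92 and 84.45 FPKM in PKD_FP against 472.70 and 346.13 FPKM in WT_FP libraries. It lay apart in all 4 libraries, at −1.91 ± 0.28 (limma, Benjamini-Hochberg adjusted p = 0.0125). Sult1c2 had 28.86 and 14.41 FPKM in PKD_FP against 39.40 and 25.18 FPKM in WT_FP libraries, which overlapped. Sult1a1 had 11.74 and 19.97 FPKM in PKD_FP against 26.69 and 38.26 FPKM in WT_FP libraries, lower without overlap but not called (−1.01, interval −2.20 to 0.18).

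Among glutathione transferases, Gsta2 had 171.88 and 127.47 FPKM in PKD_FP against 540.41 and 274.07 FPKM in WT_FP libraries. Gstk1 had 42.94 and 25.07 FPKM in PKD_FP against 104.19 and 76.16 FPKM in WT_FP libraries, and Gstz1 had 60.00 and 42.24 FPKM against 158.26 and 120.75 FPKM. None of these overlapped. The log2 fold changes were −1.37 ± 0.35 for Gsta2 (limma, Benjamini-Hochberg adjusted p = 0.0482), −1.41 ± 0.30 for Gstk1 (adjusted p = 0.0288) and −1.44 ± 0.26 for Gstz1 (adjusted p = 0.0198).

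Gsta1 and Gsto1 were not called under FP. Gsta1 had 18.94 and 17.41 FPKM in PKD_FP against 12.86 and 15.48 FPKM in WT_FP libraries, a log2 difference of 0.34 with an interval of −0.29 to 0.97. Gsto1 had 104.27 and 112.99 FPKM in PKD_FP against 92.12 and 80.39 FPKM in WT_FP libraries, a difference of 0.33 (−0.53 to 1.19). Both lay higher in PKD_FP without overlap, by small margins. Gstm1 had 415.45 and 593.28 FPKM in PKD_FP against 588.01 and 1028.43 FPKM in WT_FP libraries, and Gstp1 had 292.71 and 309.61 FPKM against 278.69 and 260.60 FPKM, and neither was called.

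Without PKD_FP replicate 2 none of the 7 lower calls stood, at log2 fold changes of −1.16 for Gsta2, −1.04 for Gstk1, −1.19 for Gstz1, −1.58 for Sult1d1, −3.07 for Ugt1a10, −2.36 for Ugt3a1 and −2.22 for Ugt3a2. Without WT_FP replicate 1 only Ugt3a1 stayed called, with Gsta2 at −0.88, Gstk1 at −1.19, Gstz1 at −1.25, Sult1d1 at −1.69, Ugt1a10 at −3.15 and Ugt3a2 at −2.12. Without PKD_FP replicate 1, the calls of Gsta2 (−1.59), Gstz1 (−1.69), Ugt1a10 (−4.03) and Ugt3a2 (−2.91) ended. Without either PKD_DMSO library Gsta2 and Gstk1 were no longer called, nor was Gsta2 without either WT_DMSO library, all at unmoved fold changes, since those libraries enter only the shared estimate of spread. Beside these genes, 10 of 15 proximal tubule markers were lower (median −1.90) and 9 of 10 macrophage markers higher (median 2.34) in PKD_FP. Their part in the members' differences was not tested.

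**Figure D4:**
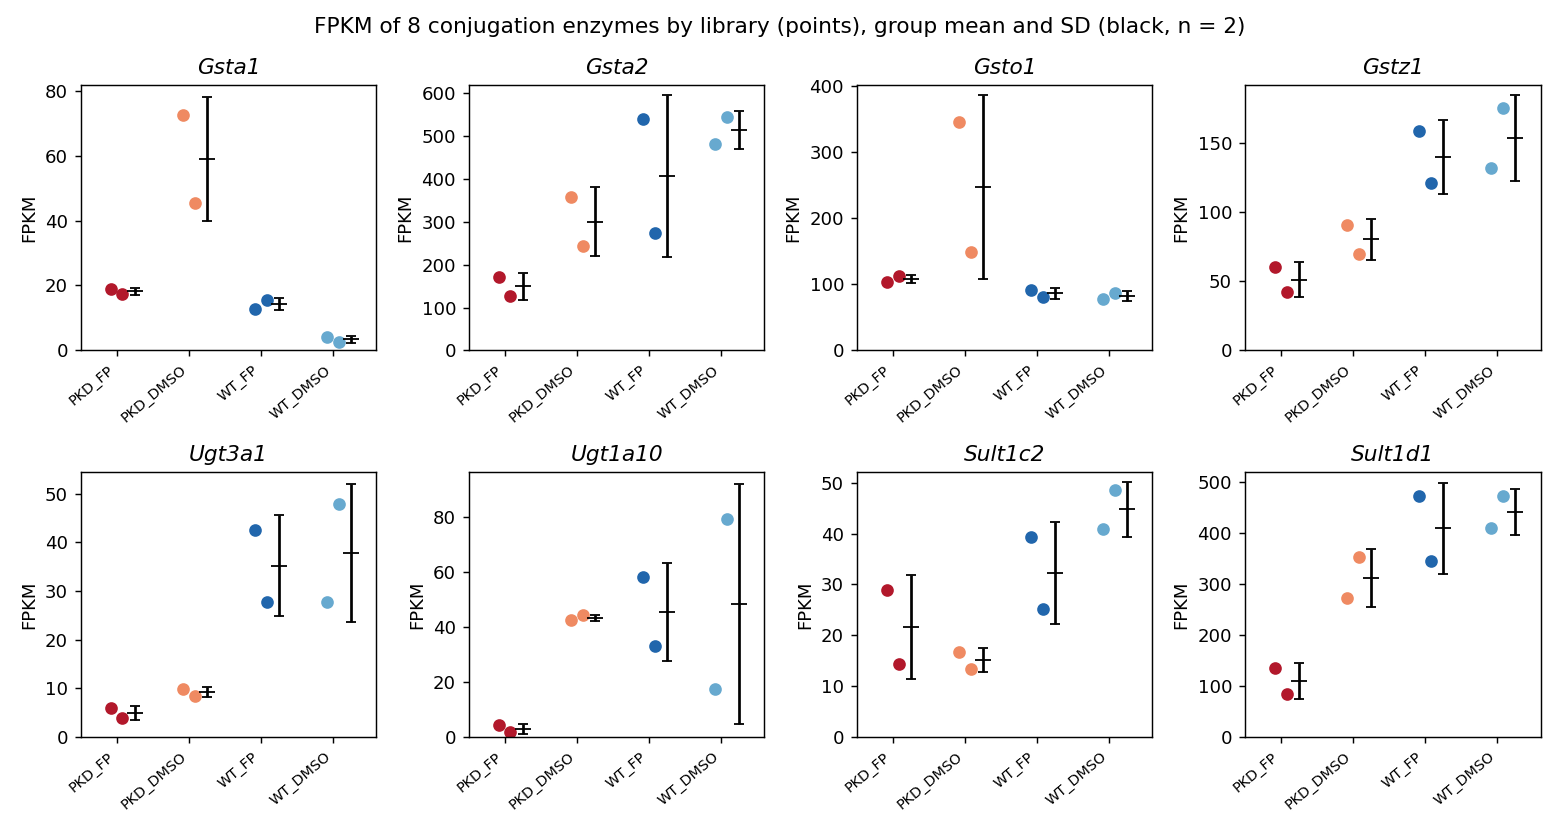
FPKM (vertical axes, from 0) of 8 members in the 4 groups; each coloured point is 1 library, and the black mark and bar are the group mean and SD (n = 2). Gsta1 is highest in PKD_DMSO (58.9 ± 19.1 FPKM) and lowest in WT_DMSO (3.49 ± 1.07 FPKM), with both FP groups between them, while Ugt1a10 and Sult1d1 are lowest in PKD_FP.

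The FP comparisons ask how the relative levels of these transcripts differed with flavopiridol in each genotype. As FPKM is scaled to each library's mapped total, a change shared by all transcripts would not show. In PKD kidneys no member passed the threshold in limma with Benjamini-Hochberg adjustment in either direction, and 0.00695% of all genes did in each. At an unadjusted p under 0.05 there were 11 members lower, where 9.14% of all genes were, and 1 higher, where 10.3% of all genes were. Without regard to the test, 15 members lay lower in PKD_FP without overlap (25.2% of all genes did) and 8 higher (31.4% of all genes), with a median log2 fold change of −0.21 over the members and 0.04 over all genes.

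The glucuronide transferases of the Ugt1a locus carried the widest differences. Ugt1a10 had 4.33 and 1.75 FPKM in PKD_FP against 42.65 and 44.23 FPKM in PKD_DMSO libraries. That gave −3.54 (interval −5.14 to −1.93), the rank 14390 of 14391 genes from the highest fold change down, at a limma Benjamini-Hochberg adjusted p of 0.124. Ugt1a2 had 20.02 and 1.16 FPKM in PKD_FP against 60.77 and 48.97 FPKM in PKD_DMSO, and Ugt1a7c had 6.38 and 2.68 FPKM against 31.84 and 32.79 FPKM. Ugt1a1 had 0.81 and 0.24 FPKM in PKD_FP against 4.49 and 3.66 FPKM in PKD_DMSO libraries. All 4 genes lay lower in PKD_FP without overlap, none was called, and they share coding sequence. Ugt1a6a, of the same locus, had 0.21 and 0.59 FPKM in PKD_FP against 1.75 and 2.43 FPKM in PKD_DMSO libraries. It too lay lower without overlap and was not called. Its near copy Ugt1a6b overlapped, with 151.64 and 63.07 FPKM in PKD_FP against 107.19 and 39.39 FPKM in PKD_DMSO libraries. The UGT3A pair lay lower without overlap, at −0.81 (−1.58 to −0.04) for Ugt3a1 and −1.03 (−2.09 to 0.02) for Ugt3a2.

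Sult1d1 had 134.92 and 84.45 FPKM in PKD_FP against 272.00 and 352.43 FPKM in PKD_DMSO libraries, a log2 difference of −1.53 (−2.19 to −0.86; limma, Benjamini-Hochberg adjusted p = 0.124). Gsta1 had 18.94 and 17.41 FPKM in PKD_FP against 72.40 and 45.42 FPKM in PKD_DMSO libraries, a difference of −1.61 (−2.24 to −0.98; adjusted p = 0.124). Neither overlapped. The other alpha-class genes lay on the same side: Gsta2 at −0.99 (−1.83 to −0.14), Gsta3 at −1.50 (−2.57 to −0.43) and Gsta4, which conjugates the lipid peroxidation product 4-hydroxynonenal, at −0.51 (−1.20 to 0.18). Gsto1 was at −1.06 (−1.91 to −0.20) and Gstz1 at −0.65 (−1.27 to −0.03), and Gstt1, a theta-class enzyme, was the single member on the high side with an interval that left out 0, at 0.56 (0.06 to 1.05). Gstk1 (−0.85 to 0.57), Gstm1 (−0.77 to 0.68), Gstp1 (−0.17 to 0.64) and Sult1c2 (−0.41 to 1.24) had intervals that spanned 0.

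In WT kidneys no gene of any kind was called between WT_FP and WT_DMSO by limma (0 of 14391, or 0.0%, in each direction). At an unadjusted p under 0.05 the 38 members gave 1 higher, Gsta1, where 0.91% of all genes were, and 0 lower, where 0.361% of all genes were. Gsta1 had 12.86 and 15.48 FPKM in WT_FP against 4.25 and 2.73 FPKM in WT_DMSO libraries. It was the single member higher in WT_FP without overlap (16.6% of all genes were), at 1.77 (1.14 to 2.40; limma, Benjamini-Hochberg adjusted p = 0.650). Another 3 members lay lower without overlap (5.32% of all genes), and 34 overlapped. The median log2 fold change was −0.05 over the members and 0.09 over all genes.

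Replicates of the WT groups were far apart for several members. Ugt1a7c had 45.71 and 4.10 FPKM in the WT_FP libraries against 5.30 and 38.77 FPKM in the WT_DMSO libraries. Ugt2b38 had 32.74 and 4.13 FPKM in WT_FP against 15.66 and 51.61 FPKM in WT_DMSO libraries, and Ugt1a2 had 54.35 and 5.84 FPKM against 17.02 and 38.79 FPKM. For all 3, WT_FP replicate 2 and WT_DMSO replicate 1 were low and the other two WT libraries high, the same split as in the correlations above. Most of the 15 proximal tubule markers divided the WT libraries in the same way. Slc34a1 had 1665.94 and 769.13 FPKM in WT_FP against 1309.68 and 1879.08 FPKM in WT_DMSO libraries. Lrp2 had 68.67 and 35.73 FPKM in WT_FP against 52.7 and 95.69 FPKM in WT_DMSO libraries. Kap, Aqp1, Slc5a12 and Slc22a8 did not divide them so. The collecting duct gene Aqp2 divided these libraries with high and low exchanged, at 386.41 and 1343.91 FPKM in WT_FP against 798.68 and 535.72 FPKM in WT_DMSO libraries. The rest of the collecting duct list was mixed. Avpr2 and Slc4a1 divided the libraries as Aqp2 did, Atp6v1b1 and Scnn1g did so the opposite way, and Aqp3, Scnn1b and Foxi1 did not divide them. The part of these genes was not tested. The absolute log2 gap between the 2 libraries of a group had a median over the members of 0.529 in PKD_FP, 0.308 in PKD_DMSO, 0.561 in WT_FP and 0.453 in WT_DMSO, against 0.235, 0.178, 0.246 and 0.291 over all genes in the same groups. Because each gene's spread was estimated over the 4 groups together, wide replicate gaps in WT widened the intervals in both genotypes. For Ugt1a7c the FP interval ran from −2.81 to 2.74 in WT and from −5.45 to 0.10 in PKD kidneys.

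**Figure D5:**
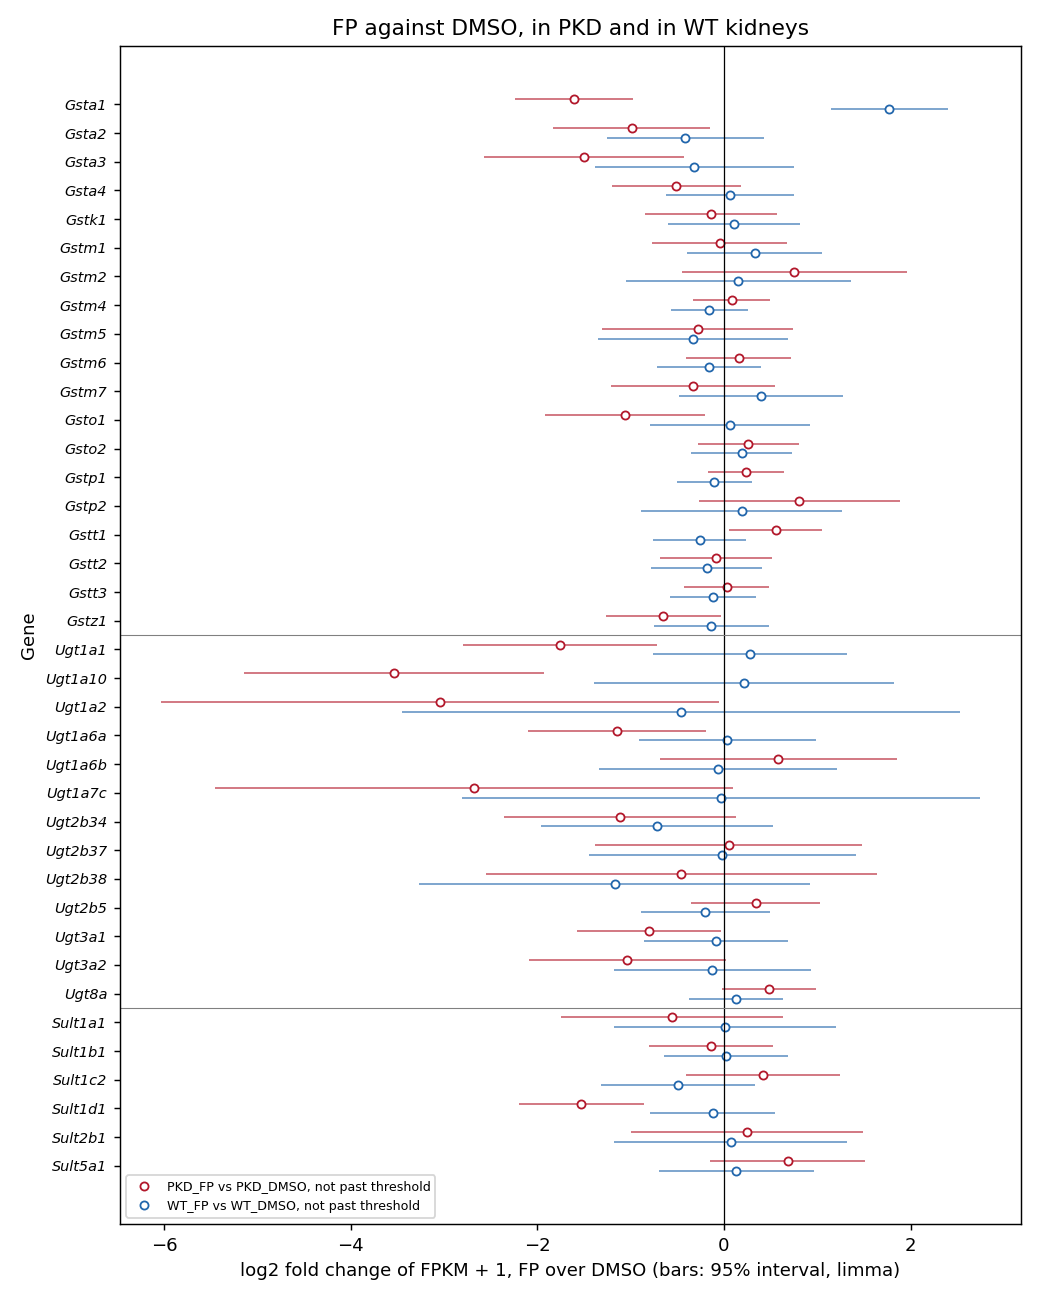
Log2 fold change of FPKM + 1 (horizontal axis) for each of the 38 members, PKD_FP over PKD_DMSO in red and WT_FP over WT_DMSO in blue, with 95% limma intervals as bars; open points did not pass the threshold, and none did. Gsta1 lies at −1.61 in PKD and 1.77 in WT kidneys.

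Whether FP acted differently by genotype was tested as an interaction, the FP difference in PKD minus that in WT kidneys. No member and no gene passed limma's threshold with Benjamini-Hochberg adjustment (0.0% in each direction), and at an unadjusted p under 0.05 there were 1 member higher (4.45% of all genes) and 4 lower (6.78% of all genes). Gsta1 was at −3.38 (−4.27 to −2.49), rank 3 by p among 14391 genes, with an unadjusted p of 4.99e-05 and an adjusted p of 0.239. Ugt1a10 was at −3.75 (−6.02 to −1.48), Ugt1a1 at −2.03 (−3.51 to −0.56) and Sult1d1 at −1.41 (−2.35 to −0.46). Gstt1 was at 0.82 (0.11 to 1.52). The median over the members was −0.20, and −0.05 over all genes. In 3 members, Gsta1, Gstp1 and Gstt1, both FP libraries lay on opposite sides of the DMSO libraries in PKD and in WT kidneys, which 7.69% of all genes did.

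The genes around these enzymes were read from lists of pathway members, each also chosen with results of these data known. In PKD_DMSO against WT_DMSO kidneys, 2 of 18 tested genes of glutathione synthesis and turnover rose and 4 fell, with a median log2 fold change of −0.70. The risers were Gclc, the catalytic subunit of the rate-limiting ligase (0.99), and Oplah (0.85). Among those that fell were Ggct (−1.84), Chac2 (−1.08), which degrades glutathione, and Dpep1 (−2.34), the dipeptidase of the proximal tubule brush border. Of 13 glutathione peroxidases, membrane transferases and related genes, Alox5ap (2.27) and Mgst1 (1.12) rose, and Gpx6 (−1.71) and Mgst3 (−1.05) fell. Alox5ap is an arachidonate-binding protein of myeloid cells, whose markers were also higher. The part of such cells in its difference was not tested.

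For the co-substrates, Pgm1 (0.95) and Gusb (1.15), the lysosomal glucuronidase, rose among 8 genes of UDP-glucuronate supply and glucuronide breakdown, and none fell. The symbols Pgm1 and Pgm2 have been used for each other's gene in mouse (each is a synonym of the other in RefSeq), so no role is given to Pgm1, and Pgm2 (−0.37) was not called. Of 15 genes of sulfate supply and sulfate ester breakdown, Tpst2 (0.72) and Impad1 (1.10) rose, and Bpnt1 (−0.74), a phosphatase of the spent sulfate donor, and the sulfate transporter Slc26a1 (−1.02) fell. Of 10 efflux transporters, Abcc3 (0.89) and Abcc4 (0.71) rose and Abcc6 (−0.82) fell. Each of these counts came from limma with Benjamini-Hochberg adjustment over all genes, beside 14.8% of all genes called higher and 7.52% lower.

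Of 18 regulators tested, 6 rose and none fell in PKD_DMSO, among them the small Maf gene Maff (3.11), Nfe2l2, which encodes NRF2 (0.96), Ahr, the aryl hydrocarbon receptor (1.27), and Bach1, a repressor at antioxidant response elements (0.71). Of 12 other NRF2 targets 4 rose and none fell: Pgd (1.10), Akr1b8 (2.99), Srxn1 (0.63) and Cbr3 (2.44). Of the targets not called, Hmox1 (1.14), Txnrd1 (0.80), G6pdx (0.60) and Nqo1 (0.48) lay above 0. Me1 (−1.02), Osgin1 (−0.71), Taldo1 (−0.14) and Tkt (−0.08) lay below 0. Of all genes in PKD_DMSO against WT_DMSO kidneys, 14.8% were called higher and 7.52% lower. Under the drug, in PKD_FP against WT_FP kidneys, 3 regulators rose and 3 fell, and 1 other NRF2 target rose and 1 fell. In that comparison 5 of 18 genes of glutathione synthesis and turnover fell and none rose. Of all genes in that comparison, 8.71% were called higher and 5.23% lower. No gene of the 7 lists was called for FP against DMSO in either genotype.

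The promoters of the members were searched for the letters that such regulators read, in RefSeq windows of GRCm38.p6 from 250 bases before to 50 after each start, on both strands. The antioxidant response element core TGACNNNGC was found in 3 of the 34 members that had a window (8.82%, against 14.0% of all genes), Gsta3, Gstm5 and Gstm7. The xenobiotic response element core GCGTG was found in 9 of 34 (26.5%, against 35.2% of all genes), Gsta1 and Gsta2 among them. The narrower element TGACTCAGC, itself 1 form of TGACNNNGC, was found in 0 of 34 and in 0.503% of all genes. The HNF1 palindrome and the DR1 direct repeat read by HNF4 and PPAR were found in 0 of 34, and in 0.0111% and 0.0481% of all genes. These matches describe the letters in short windows and nothing beyond them.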

How the data were processed

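Whole-kidney poly(A) RNA was sequenced by BGI after TRIzol extraction, per the labels' protocols. The numbers in the deposited files were taken as FPKM, computed by the authors: the file headers name no unit, and this was inferred from the values, and reads may have been counted in place of fragments. Bowtie2, DESeq2 and mm10 are named with no role or version, per the submitters' processing notes. Read totals are not given; in 34 olfactory receptor genes of 900 to 1000 bp the commonest non-zero value was 0.06 to 0.08 FPKM in every library, resting on 2 to 10 genes each, too few to give the depth.

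Values were put on the log2(FPKM + 1) scale. Only the 14391 genes that reached 1 FPKM in 2 or more libraries were fitted; 4 entries of repeated symbols and 1 with a dash for a symbol were left out. A mean per group was fitted to 8 libraries with limma 3.58.1 in R 4.3.3 (trend and robust settings), two-sided, with Benjamini-Hochberg adjustment over all genes and a threshold of 0.05, and was tested on simulated data. With 2 libraries a group, a permutation test of 1 value cannot go below 0.33. The members, lists, rule and tests were chosen with earlier results of these data known. The rule gave library values for Gsta1, for members past the threshold in any contrast and for the 3 most abundant per family, and up to 4 called genes per list by smallest p; other members named were picked with their values in view. Marker lists for kidney segments, immune, stromal, liver, fat and adrenal cells were read the same way. The main fit did not treat libraries of the same replicate number as pairs. Coordinates and promoters came from RefSeq GRCm38.p6, with all 52 symbols matched, and coding sequences from GENCODE M21 were aligned with Biopython 1.88 in Python 3.11.15. Figures were drawn with matplotlib 3.10.9. Alternatives were scaling, filters, pseudocount, replicate block, model settings and each library left out.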

Additional observations from a re-analysis of the deposited data

Results flagged for a closer look

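Opposite directions with FP in the 2 genotypes were seen for 3 members, with both libraries of each FP group on 1 side of both DMSO libraries. Gsta1 was lower with FP in PKD and higher in WT kidneys, with a difference between the 2 effects of −3.38 on the log2 scale. Gstp1 was higher with FP in PKD and lower in WT kidneys, by 0.342 in the same difference. Gstt1 was likewise higher with FP in PKD and lower in WT kidneys, by 0.817. All 3 were tested as interactions, and none passed limma's threshold with Benjamini-Hochberg adjustment (adjusted p = 0.239 for Gsta1, 0.641 for Gstp1 and 0.420 for Gstt1). Such opposite, non-overlapping moves were seen in 3 of 38 members and in 1106 of 14391 genes (7.69%).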

How the results depend on the processing

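The 14 member calls were refitted under 17 alternatives, which gave 238 values: 173 stayed past the threshold, 65 kept their direction but not the call, and 0 reversed. In PKD_DMSO against WT_DMSO kidneys the 2 higher calls became 1 with no low-value filter, with median-of-ratios scaling and with only the groups compared, and 1 to 2 across the left-out libraries. The 5 lower calls became 2 with no low-value filter, 3 with median-of-ratios scaling and 0 to 5 across the left-out libraries. In PKD_FP against WT_FP kidneys the 7 lower calls became 0 to 7 across the left-out libraries. The FP comparisons and the interaction gave 0 member calls under every alternative run; the interaction was not run with only the groups compared, which it cannot be.

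The replicate number as a block gave 2 higher and 4 lower members in PKD_DMSO against WT_DMSO kidneys, 7 lower in PKD_FP against WT_FP kidneys and 0 in the FP comparisons and the interaction. Same-numbered libraries did not deviate together in all pairs of groups (correlations from −0.515 to 0.485). The negative correlations were those with WT_DMSO (−0.515 to −0.184), and the others were 0.09 to 0.485. Whether the samples were paired in another order cannot be told from such correlations. With the WT_DMSO numbers exchanged, an alternative chosen after seeing the data, 8 members were lower in PKD_DMSO and 11 in PKD_FP.

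Median-of-ratios scaling moved the all-gene median (log2) in PKD_DMSO against WT_DMSO kidneys to −0.0129, against 0.121 unscaled, and gave 1524 genes higher and 1358 lower, against 2130 and 1082; quantile normalization gave 1700 and 1522. For PKD_FP against WT_FP kidneys these were 992 and 761 after median-of-ratios scaling, 1273 and 972 after quantile normalization, and 1254 and 753 unscaled. Under this scaling Gsto1 (1.29), Gstz1 (−1.08), Ugt3a2 (−1.82) and, under FP, Gsta2 (−1.47) were no longer called. With no low-value filter the calls of Gstk1, Gsto1, Gstz1 and Ugt3a2 in PKD_DMSO and of Gsta2 in PKD_FP ended, and with only the groups compared those of Gsto1 and Gstz1 in PKD_DMSO and of Gsta2 and Gstk1 in PKD_FP, at fold changes that did not move. Leaving out a PKD_FP library ended the PKD_DMSO calls of Gsto1, Gstz1 and Ugt3a2, and leaving out a WT_FP library that of Gstz1, through the shared spread. Without read totals, no counting interval could be given for low members.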
